A study of Caenorhabditis elegans with 10 samples.

Results

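The genes described here are *msra-1*, which encodes the *C. elegans* methionine-S-sulfoxide reductase, and 5 genes of the thioredoxin system, which can keep such enzymes reduced. They are the thioredoxins *trx-1*, *trx-2* and *trx-3* and the thioredoxin reductases *trxr-1* and *trxr-2*. The members were chosen by name, as the enzyme and its presumed electron supply, with earlier results of these data known. Each of the 6 symbols matched 1 identifier among the 46903 genes of the expression table. Of the 6, 5 averaged 1 TPM or more (the relative transcript abundance, scaled to a sum of 1000000 per library) and entered the test across genes, and *trx-1* did not.

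Methionine in proteins and free methionine are oxidized to methionine sulfoxide, and methionine sulfoxide reductases return the sulfoxide to methionine. In each round the enzyme itself becomes oxidized and is reset by a thioredoxin, a small protein with a reactive pair of cysteines, which thioredoxin reductase then reduces again with NADPH. Repair of free methionine sulfoxide therefore feeds the pool of methionine from which S-adenosylmethionine (SAM) is made. Repair of either form shares its electron source with peroxiredoxins and ribonucleotide reductase.

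RNA was sequenced from whole animals labelled as L4 larvae, in 2 biological replicates of each of 5 strains, giving 10 libraries. The methods of the study describe the picked animals as late L4 or early young adult, so the stage may be wider than the label. Of the strains, 4 carry 1 mutation each in the methionine/SAM (Met/SAM) cycle: *mthf-1(ww50)*, in the methylenetetrahydrofolate reductase that supplies the methyl group, *sams-1(ww51)*, in the SAM synthetase, *metr-1(ww52)*, in methionine synthase, and *mtrr-1(ww56)*, in the reductase that keeps methionine synthase active. They were set against their parent, *Pacdh-1::GFP;∆nhr-10*, and all 5 strains share its 2 elements, the *wwIs24[Pacdh-1::GFP;unc-119(+)]* transgene, in which the *acdh-1* promoter drives GFP, and the deletion *nhr-10(tm4695)*, which removes part of a nuclear hormone receptor gene. Animals of every strain, synchronized by L1 arrest, ate *E. coli* OP50 on plates with 20 nM vitamin B12 for 48 hours. Each mutation is a point mutation from a chemical mutagenesis screen and is represented by 1 strain, so other mutations carried by a strain cannot be told apart from the named one, and no strain with an intact *nhr-10* was analysed here.

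TPM values keep no sequencing depth, so no counting interval can be given, and the precision rests on the 2 replicates. The number of genes at 1 TPM or more ran from 13752 to 14563 per library. Which mutation a library carries could not be checked from levels: *nhr-10* was listed at 3.13 to 6.19 TPM in all 10 libraries, and each of the 4 mutated genes was above both parent libraries in its own mutant. The mutants as a group did separate from the parent by *acdh-1*, the gene whose promoter drives the transgene. It had 0.05 and 0.18 TPM in the parent and 20.94 to 477.33 TPM in the 8 mutant libraries. Libraries that share a replicate number deviated from their strain means together, and the 10 molting markers examined summed to 494 to 2388 TPM in the 8 mutant libraries and to 198 and 440 TPM in the parent, so the libraries differ in stage markers as well as in genotype. In whole-animal RNA, fewer cells of a type and less RNA per cell cannot be told apart.

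Comparisons were made with limma on log2(TPM + 1) over the 14418 genes that passed the filter, with p-values adjusted by the Benjamini-Hochberg method over all of them, and a call needed an adjusted p under 0.01 as well as a change of over 1.5-fold. The fold changes are on this scale and understate those of genes with few transcripts. With 2 libraries per strain, the smallest two-sided p of an exact permutation test for 1 gene is 0.333, and all strains therefore shared 1 estimate of the spread. Because equal replicate numbers deviated together, the fit with the replicate number as a block is given where it changed a call.

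*msra-1* was the member that differed most between the mutants and the parent. It had 1943.81 and 1531.17 TPM in *mthf-1(ww50)*, 1413.14 and 476.11 TPM in *sams-1(ww51)*, 1380.54 and 1097.06 TPM in *metr-1(ww52)* and 1570.68 and 1017.18 TPM in *mtrr-1(ww56)*, against 81.26 and 53.86 TPM in the parent. Every one of the 8 mutant libraries was above both parent libraries, and the lowest of them, *sams-1(ww51)* replicate 2, stood apart from the other 7. By rank of TPM within a library, *msra-1* took places 112 to 344 in the mutants and places 1512 and 2291 in the parent.

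**Figure D1:**
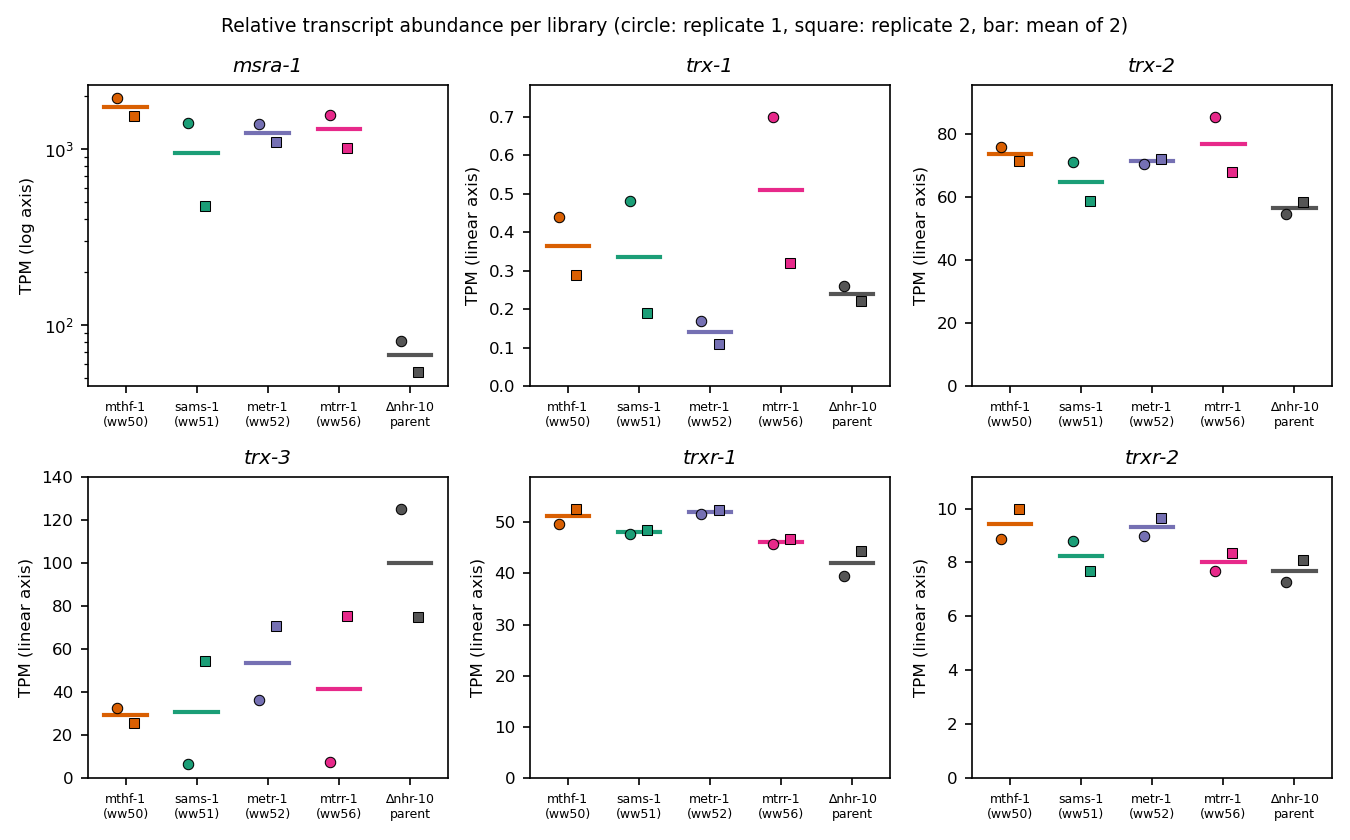
TPM of the 6 genes in each library, with the 4 mutants to the left of the parent, a circle for replicate 1, a square for replicate 2 and a bar for the mean. *msra-1* is on a log axis, from 53.86 TPM in the parent to 1943.81 TPM in *mthf-1(ww50)*, and the other genes are on linear axes that start at 0.

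On the log2(TPM + 1) scale, *msra-1* was 4.68 ± 0.50 higher in *mthf-1(ww50)* than in the parent, 3.61 ± 0.50 higher in *sams-1(ww51)*, 4.20 ± 0.50 higher in *metr-1(ww52)* and 4.24 ± 0.50 higher in *mtrr-1(ww56)* (SE, 2 libraries per strain). In limma with Benjamini-Hochberg adjustment, the 4 differences had adjusted p-values of 0.0142, 0.0466, 0.0160 and 0.0199, which is above the cutoff of 0.01 in every mutant. The mean of the 4 mutants was 4.18 higher than the parent (95% interval 3.25 to 5.11) with an adjusted p-value of 0.00694 in the same fit, so *msra-1* rose in the mutants taken as a group, 18.1-fold, with all 8 mutant libraries above both parent libraries.

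With the replicate number as a block, limma called *msra-1* higher in each of the 4 mutants. The adjusted p-values in this paired fit were 0.00255 for *mthf-1(ww50)*, 0.00341 for *sams-1(ww51)*, 0.00332 for *metr-1(ww52)* and 0.00324 for *mtrr-1(ww56)*, and 0.00135 for their mean. Within replicate 1 the log2 differences from the parent were 4.56, 4.10, 4.07 and 4.26 for *mthf-1(ww50)*, then *sams-1(ww51)*, then *metr-1(ww52)* and then *mtrr-1(ww56)*, and within replicate 2 they were 4.80, 3.12, 4.32 and 4.21. Replicate 1 had more *msra-1* than replicate 2 in 5 of 5 strains.

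Without the block, 1 of the 5 tested members was called in the mean of the 4 mutants, where 0.243% of all genes were called. None of the 5 was called in a single mutant, where the share of all genes called was 0.187% for *mthf-1(ww50)*, 0.0763% for *sams-1(ww51)*, 0.291% for *metr-1(ww52)* and 0.132% for *mtrr-1(ww56)*. At an unadjusted p under 0.05 in the limma fit, 3 members differed from the parent in *mthf-1(ww50)* (beside 11.9% of all genes), 2 in *metr-1(ww52)* (beside 12.5%), 2 in *mtrr-1(ww56)* (beside 26.0%) and 1 in *sams-1(ww51)* (beside 18.2%). With the block, 1 member was called in each mutant and in their mean, always *msra-1*, beside 0.305% of all genes for *mthf-1(ww50)*, 2.68% for *sams-1(ww51)*, 0.52% for *metr-1(ww52)*, 4.18% for *mtrr-1(ww56)* and 3.19% for the mean.

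The call in the mean of the 4 mutants depended on single libraries. It was lost in limma, with adjusted p-values of 0.0159 to 0.105, when any 1 of the 8 libraries of the parent, *mthf-1(ww50)*, *metr-1(ww52)* or *mtrr-1(ww56)* was left out, and kept without *sams-1(ww51)* replicate 1 (0.00336) or replicate 2 (0.00198). The size of the difference moved little, between 3.89 and 4.47, whichever library was left out.

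The molting markers, genes of the cuticle and of ecdysis, moved in the same direction as *msra-1*, since all 10 had positive mean differences and none was at 0 TPM in any library. Without the pair of libraries with the highest molting sums, *sams-1(ww51)* replicate 1 and *mtrr-1(ww56)* replicate 1, the mean difference of *msra-1* was 3.91 (limma adjusted p = 0.00778). The part of stage in the *msra-1* values was not tested.

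Among the mutants, *msra-1* was highest in *mthf-1(ww50)*, followed by *mtrr-1(ww56)*, *metr-1(ww52)* and *sams-1(ww51)* by fitted mean. No neighbours in this order differed beyond their spread. The log2 difference was 0.45 (95% interval -0.73 to 1.63) for *mthf-1(ww50)* minus *mtrr-1(ww56)*, 0.04 (-1.14 to 1.22) for *mtrr-1(ww56)* minus *metr-1(ww52)* and -0.58 (-1.76 to 0.60) for *sams-1(ww51)* minus *metr-1(ww52)*. The widest gap, *sams-1(ww51)* minus *mthf-1(ww50)*, was -1.07 (-2.25 to 0.11, limma adjusted p = 0.407).

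*sams-1* acts after methionine in the cycle and the other 3 genes act before it, so *sams-1(ww51)* was also set against the mean of the other mutants. *msra-1* was 0.76 lower there on the log2 scale (95% interval of the difference -1.72 to 0.20, limma adjusted p = 0.677), a difference that rests on replicate 2, since without it the value was 0.02. None of the 5 tested members was called in this comparison with or without the block, and 1, *msra-1*, had an unadjusted p under 0.05 in the blocked fit alone (limma adjusted p = 0.212). The share of all genes called was 0% in both fits, beside 7.94% with an unadjusted p under 0.05 in the fit without the block.

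The same held for the 6 pairs of mutants, in which 0 members were called by limma with or without the block. Without the block, 0 had an unadjusted p under 0.05. With it, *msra-1* had an unadjusted p of 0.0105 in *sams-1(ww51)* minus *mthf-1(ww50)* (limma adjusted p = 0.0930). The share of all genes called without the block was 0.00694% for *sams-1(ww51)* minus *mthf-1(ww50)* and the same for *sams-1(ww51)* minus *metr-1(ww52)*. It was 0.0139% both for *sams-1(ww51)* minus *mtrr-1(ww56)* and for *mthf-1(ww50)* minus *metr-1(ww52)*. It was 0.16% for *mtrr-1(ww56)* minus *metr-1(ww52)* and 0.0277% for *mthf-1(ww50)* minus *mtrr-1(ww56)*.

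**Figure D2:**
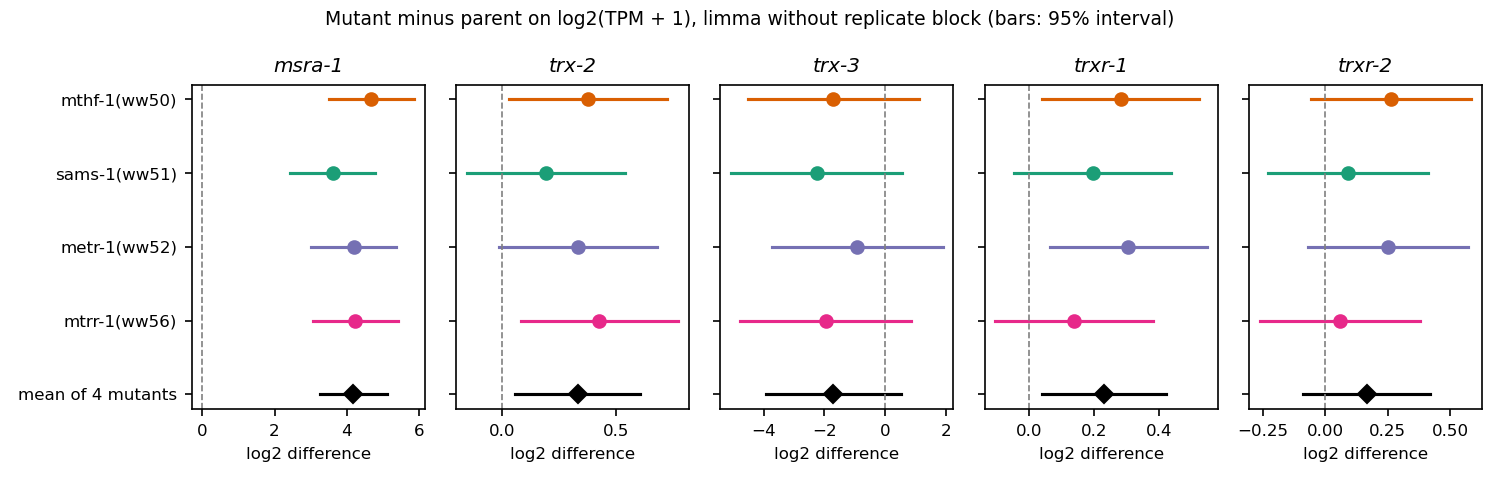
Difference of each mutant and of the mean of the 4 mutants from the parent on log2(TPM + 1) for the 5 tested genes, with 95% intervals from the limma fit without the block and a separate horizontal scale for each gene. The intervals of *msra-1* lie between 2.43 and 5.86, those of *trx-3* all include 0, and the values of *trx-2*, *trxr-1* and *trxr-2* are all under 0.5.

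Among the thioredoxin members, the mitochondrial *trx-2* was the most even. It had 75.94 and 71.54 TPM in *mthf-1(ww50)*, 71.19 and 58.81 TPM in *sams-1(ww51)*, 70.73 and 72.19 TPM in *metr-1(ww52)* and 85.59 and 68.19 TPM in *mtrr-1(ww56)*, against 54.60 and 58.57 TPM in the parent. All 8 mutant libraries were above both parent libraries, although *sams-1(ww51)* replicate 2 exceeded parent replicate 2 by little. The parent was exceeded, on the log2 scale, by 0.38 in *mthf-1(ww50)*, by 0.19 in *sams-1(ww51)*, by 0.33 in *metr-1(ww52)* and by 0.43 in *mtrr-1(ww56)* (limma adjusted p of 0.387, 0.536, 0.418 and 0.142), and the mean difference was 0.33 (95% interval 0.06 to 0.61, adjusted p = 0.184). None passed the test.

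*trx-3*, a thioredoxin known from the intestine, was lower in most mutant libraries, with a spread between replicates larger than that of any other member. It had 32.53 and 25.86 TPM in *mthf-1(ww50)*, 6.61 and 54.59 TPM in *sams-1(ww51)*, 36.35 and 70.86 TPM in *metr-1(ww52)* and 7.36 and 75.48 TPM in *mtrr-1(ww56)*, against 125.11 and 74.94 TPM in the parent. Below both parent libraries were 7 of the 8 mutant libraries, with *mtrr-1(ww56)* replicate 2 as the exception.

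The log2 difference of *trx-3* was -1.71 for *mthf-1(ww50)*, -2.25 for *sams-1(ww51)*, -0.92 for *metr-1(ww52)* and -1.95 for *mtrr-1(ww56)*, with limma adjusted p-values of 0.604, 0.366, 0.807 and 0.319. The mean was -1.71 (95% interval -3.94 to 0.52, adjusted p = 0.375), and none of the differences passed. They were also unequal between the replicates. Within replicate 1 the values were -1.91 for *mthf-1(ww50)*, -4.05 for *sams-1(ww51)*, -1.76 for *metr-1(ww52)* and -3.92 for *mtrr-1(ww56)*, and within replicate 2 they were -1.50, -0.45, -0.08 and 0.01 in the same order. Only *mthf-1(ww50)* had a difference of similar size in both replicates.

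The *trx-3* values are given beside the stage markers. Both of its lowest values, 6.61 TPM in *sams-1(ww51)* replicate 1 and 7.36 TPM in *mtrr-1(ww56)* replicate 1, came from the libraries with the highest molting sums, 2388 and 2297 TPM. Those libraries also had the lowest sums of the 8 oocyte and eggshell markers, 129.7 and 60.0 TPM, against 520 and 970 TPM in the parent, and 5 of the 8 were called lower in *mtrr-1(ww56)* with the block. Molting sums were higher in replicate 1 of every strain, and *trx-3* was lower there in 3 strains but higher in *mthf-1(ww50)*, with 32.53 TPM at a molting sum of 1101 TPM and 25.86 TPM at 494 TPM, and in the parent, with 125.11 TPM at 440 TPM and 74.94 TPM at 198 TPM. The 6 intestine markers summed to between 960 and 1481 TPM in the mutants and to 1342 and 1748 TPM in the parent. None of the 6 was at 0 TPM in any library. Only 2 had positive mean differences, and the median was -0.28, beside 0.07 over all tested genes. In the blocked fit 1 of the 6 was called lower in the mean of the 4 mutants, beside 3.19% of all genes. The intestinal regulator *elt-2* went the other way, averaging 12.4 TPM in the parent and 12.7 to 18.6 TPM in the mutants. Without both libraries the mean difference of *trx-3* was -0.95 (limma adjusted p = 0.255), with -0.82 in *sams-1(ww51)* and -0.36 in *mtrr-1(ww56)*. The part of stage in the *trx-3* values was not tested.

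**Figure D3:**
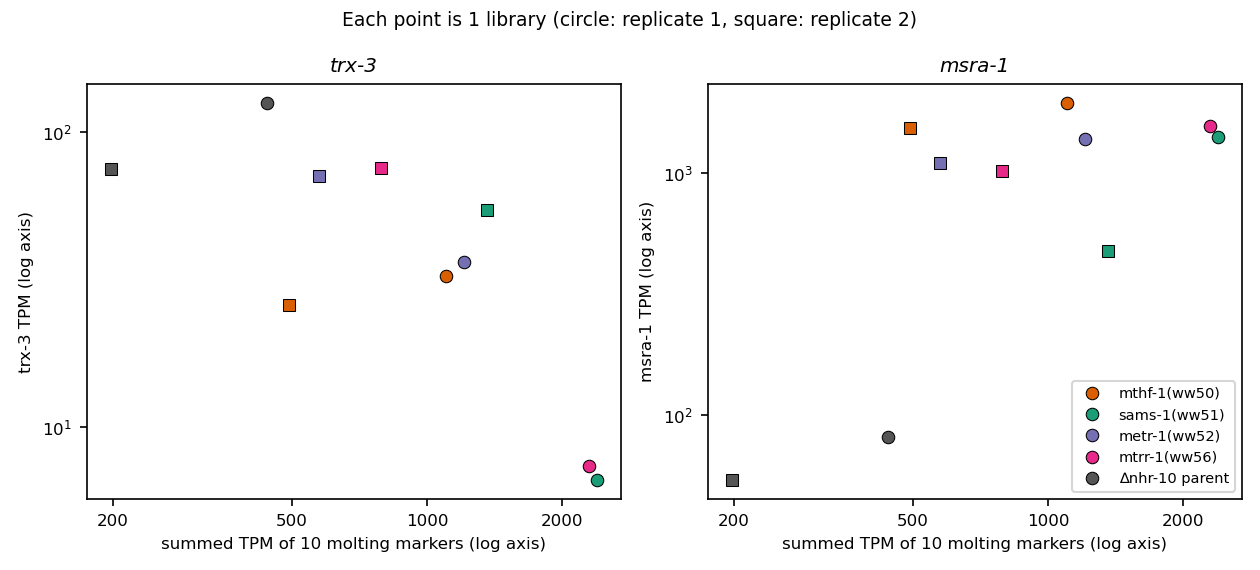
*trx-3* TPM (left) and *msra-1* TPM (right) against the summed TPM of 10 molting markers, 1 point per library on log axes. The lowest *trx-3* points, 6.61 and 7.36 TPM, lie at the highest molting sums. The 8 mutant points of *msra-1* lie above both parent points and also to the right of them. No parent library has a molting sum within the mutant range, so *msra-1* cannot be compared here at equal sums.

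*trx-1*, a thioredoxin known from the ASJ pair of sensory neurons, was close to the lower end of what the table lists. It had 0.44 and 0.29 TPM in *mthf-1(ww50)*, 0.48 and 0.19 TPM in *sams-1(ww51)*, 0.17 and 0.11 TPM in *metr-1(ww52)* and 0.70 and 0.32 TPM in *mtrr-1(ww56)*, against 0.26 and 0.22 TPM in the parent. The mutants lay on both sides of the parent, with 5 of 8 libraries above both parent libraries and 3 below both. In a limma fit with no filter, over 21477 genes, its adjusted p-values against the parent were 0.339 to 0.844. Replicate 1 was higher in 5 of 5 strains. The 3 ASJ markers, of which the insulin-like gene *daf-28* was the most abundant, summed to 9.71 to 16.95 TPM in the mutants and to 9.83 and 18.20 TPM in the parent. The sum is mostly *daf-28*. *ssu-1* averaged 0.67 to 1.4 TPM in the mutants and 1.155 TPM in the parent, and *gpa-9* 0.225 to 0.635 TPM and 0.18 TPM, so the level of ASJ transcripts remains uncertain.

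The cytosolic thioredoxin reductase *trxr-1*, a selenoprotein, varied least of the 6 genes. It had 49.74 and 52.56 TPM in *mthf-1(ww50)*, 47.74 and 48.47 TPM in *sams-1(ww51)*, 51.64 and 52.33 TPM in *metr-1(ww52)* and 45.66 and 46.71 TPM in *mtrr-1(ww56)*, against 39.49 and 44.44 TPM in the parent. All 8 mutant libraries were above both parent libraries, and the highest value was 1.33 times the lowest. The log2 difference was 0.28 for *mthf-1(ww50)*, 0.20 for *sams-1(ww51)*, 0.30 for *metr-1(ww52)* and 0.14 for *mtrr-1(ww56)*, with a mean of 0.23 (95% interval 0.04 to 0.42, limma adjusted p = 0.187), and none passed the test.

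The mitochondrial reductase *trxr-2* had fewer transcripts than *trxr-1* in every library. It had 8.86 and 9.98 TPM in *mthf-1(ww50)*, 8.79 and 7.69 TPM in *sams-1(ww51)*, 8.98 and 9.65 TPM in *metr-1(ww52)* and 7.70 and 8.35 TPM in *mtrr-1(ww56)*, against 7.26 and 8.09 TPM in the parent. The groups overlapped, with 6 of 8 mutant libraries above both parent libraries. The log2 differences were 0.06 to 0.26 and the mean was 0.17 (95% interval -0.09 to 0.42, limma adjusted p = 0.451).

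These small positive differences stood against a median over all tested genes of 0.12 for *mthf-1(ww50)*, 0.04 for *sams-1(ww51)*, 0.09 for *metr-1(ww52)* and 0.05 for *mtrr-1(ww56)*. With median-ratio scaling of the libraries the medians were 0.03, -0.02, 0.00 and -0.03, and *trxr-2* in *mtrr-1(ww56)* turned to -0.01, while *trx-2* and *trxr-1* stayed above 0 in every mutant. Of the 5 tested members, 3 (*msra-1*, *trx-2* and *trxr-1*) had all 8 mutant libraries above both parent libraries, as did 12.9% of all genes tested.

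TPM is scaled by transcript length, so the genes can be added and divided. The 3 thioredoxins together came to 108.91 and 97.69 TPM in *mthf-1(ww50)*, 78.28 and 113.59 TPM in *sams-1(ww51)*, 107.25 and 143.16 TPM in *metr-1(ww52)* and 93.65 and 143.99 TPM in *mtrr-1(ww56)*, against 179.97 and 133.73 TPM in the parent. Below both parent libraries were 6 of the 8 mutant libraries, and replicate 2 of *metr-1(ww52)* and of *mtrr-1(ww56)* lay between them. The share of *trx-2* in the sum was 47.4% to 91.4% in the mutants and 30.3% and 43.8% in the parent. Among these 3, *trx-3* was therefore the most abundant in the parent and *trx-2* in 7 of the 8 mutant libraries. *trx-4*, which was listed with the other thioredoxin-fold genes, is not in this sum. It averaged 60.64 TPM in the parent and 67.82 to 81.4 TPM in the mutants, so the shares do not cover every thioredoxin gene.

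*msra-1* was also set against the summed thioredoxins within each library. Which of them reduces MSRA-1 was not tested, and whole-animal RNA does not show whether they share its cells or compartments. The ratio of *msra-1* to the thioredoxin sum was 17.8 and 15.7 in *mthf-1(ww50)*, 18.1 and 4.19 in *sams-1(ww51)*, 12.9 and 7.66 in *metr-1(ww52)* and 16.8 and 7.06 in *mtrr-1(ww56)*, against 0.45 and 0.40 in the parent. The parent libraries had fewer transcripts of *msra-1* than of these thioredoxins, and each of the 8 mutant libraries had more. The ratio of *msra-1* to *trxr-1* was 9.82 to 39.1 in the mutants and 2.06 and 1.21 in the parent. Between the mitochondrial pair the ratio of *trx-2* to *trxr-2* was 7.17 to 11.1 in the mutants and 7.52 and 7.24 in the parent, so these groups overlapped.

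**Figure D4:**
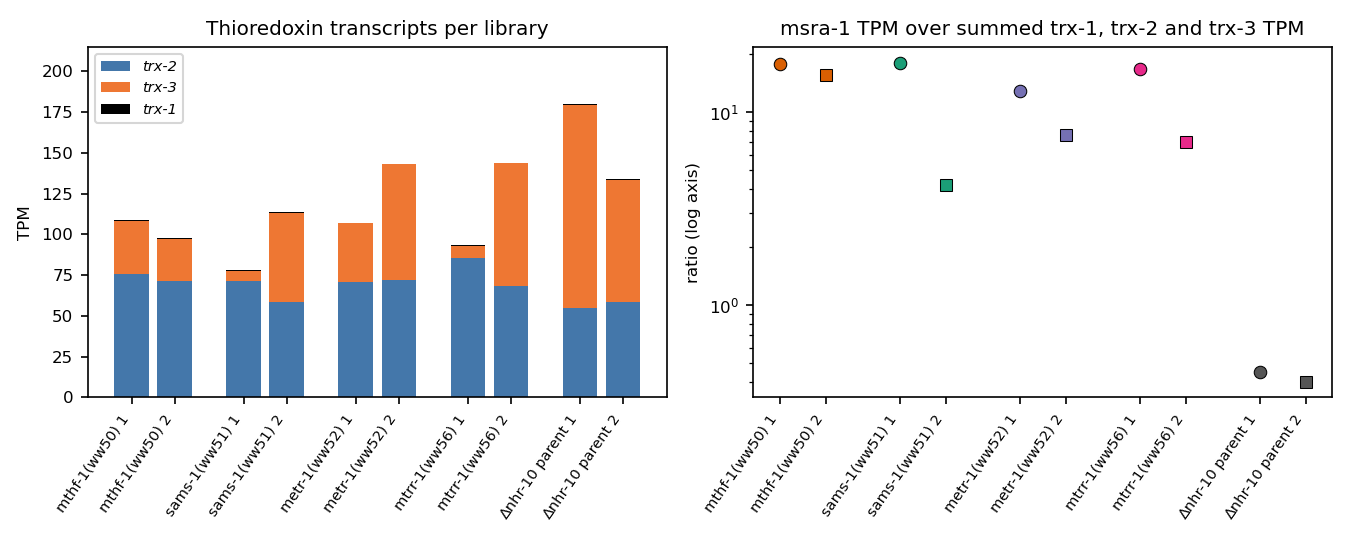
Left, stacked TPM of *trx-2*, *trx-3* and *trx-1* in each library. Right, ratio of *msra-1* TPM to the sum of the 3 thioredoxins on a log axis, which is 4.19 to 18.1 in the mutant libraries and 0.45 and 0.40 in the parent libraries.

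The genes around this system were examined as lists. Among 8 other thioredoxin-fold genes, 7 were tested and none was called without the block, while in the blocked fit 3 were higher in *sams-1(ww51)*, 2 in *mtrr-1(ww56)*, none in *mthf-1(ww50)* or *metr-1(ww52)* and 1 in the mean. Of all genes, 2.68% were called by that fit in *sams-1(ww51)* and 4.18% in *mtrr-1(ww56)*, beside 0.305% in *mthf-1(ww50)*, 0.52% in *metr-1(ww52)* and 3.19% in the mean. *txdc-12.2*, the relative of an endoplasmic reticulum thioredoxin-like protein of mammals, had 553.08 and 349.17 TPM in *sams-1(ww51)* and 589.16 and 231.26 TPM in *mtrr-1(ww56)*, against 217.06 and 90.90 TPM in the parent. Its log2 differences were 1.64 and 1.39, with limma adjusted p-values of 0.00474 and 0.00577 in the blocked fit and 0.262 and 0.235 without it.

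*dnj-27*, an endoplasmic reticulum protein with thioredoxin domains, was 1.46 higher in *sams-1(ww51)* on the log2 scale, with 43.60 and 21.14 TPM there and 14.34 and 7.53 TPM in the parent (limma adjusted p = 0.00605 with the block and 0.260 without it). *dpy-11*, a thioredoxin-like protein of the hypodermis needed for normal body shape, was 1.33 higher in *sams-1(ww51)* and 1.09 higher in *mtrr-1(ww56)* (adjusted p = 0.00615 and 0.00869 with the block, 0.237 and 0.223 without it). Its levels were 582.20 and 399.49 TPM in *sams-1(ww51)* and 608.62 and 275.01 TPM in *mtrr-1(ww56)*, against 267.97 and 136.52 TPM in the parent. These 3 genes were called in the strains in which 7 of the 10 molting markers were also called with the block, and the part of stage in their values was not tested. *txdc-9* had the lowest mean difference of the list, -0.06, and *trx-5*, with at most 0.34 TPM, was not tested.

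Enzymes listed as drawing on thioredoxin showed no call in any mutant, with or without the block, and their electron source was not tested. The list holds *F44E2.6*, the methionine-R-sulfoxide reductase that complements *msra-1*, 3 peroxiredoxins and both subunits of ribonucleotide reductase, and 5 of the 6 had positive mean differences with a median of 0.08, beside a median of 0.07 and 60.4% positive over all tested genes. *F44E2.6* had 32.15 and 31.19 TPM in *mthf-1(ww50)*, 26.31 and 29.04 TPM in *sams-1(ww51)*, 34.08 and 32.05 TPM in *metr-1(ww52)* and 27.02 and 32.67 TPM in *mtrr-1(ww56)*, against 29.47 and 27.81 TPM in the parent. The groups overlapped, and its mean log2 difference was 0.09 (limma adjusted p = 0.674). The large subunit gene *rnr-1* had the highest mean difference of the list, 0.51 (adjusted p = 0.294), and the small subunit gene *rnr-2* had the lowest, -0.02 (adjusted p = 0.961).

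Of the 5 NADPH-producing enzymes, 4 had positive mean differences, with a median of 0.17, and none was called. *idh-1*, a cytosolic isocitrate dehydrogenase, had the highest, with 170.38 and 219.74 TPM in *mthf-1(ww50)*, 466.23 and 173.36 TPM in *sams-1(ww51)*, 141.28 and 161.59 TPM in *metr-1(ww52)* and 271.65 and 120.25 TPM in *mtrr-1(ww56)*, against 87.96 and 115.20 TPM in the parent. All 8 mutant libraries were above both parent libraries, as for 12.9% of all genes tested, and the mean log2 difference was 0.96 (SE 0.41, limma adjusted p = 0.260). *nnt-1*, the mitochondrial transhydrogenase, had the lowest, -0.47 (adjusted p = 0.365).

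No gene was called in the remaining pathway lists either, with or without the block. Of 6 glutaredoxins and glutathione reductase genes, 3 had positive mean differences, which ran from -0.17 for the glutathione reductase *gsr-1* to 0.08 for *glrx-10*, with a median of -0.02. Of 3 genes that make or load selenocysteine, the residue at the end of TRXR-1, 2 were positive, from -0.04 for *pstk-1* to 0.18 for *seld-1*. Among superoxide dismutases and catalases 7 of 8 were tested and 6 were positive, from -0.22 for *sod-3* to 0.44 for the catalase *ctl-1* (limma adjusted p = 0.134), with a median of 0.26.

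**Figure D5:**
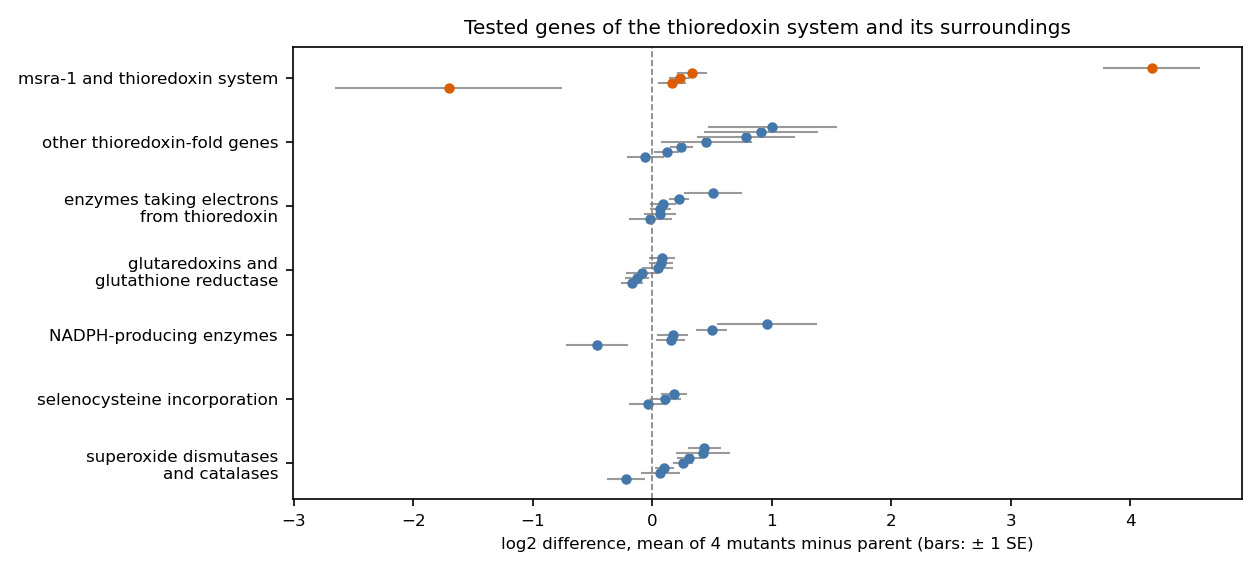
Mean log2 difference of the 4 mutants from the parent for each tested gene of the 7 lists, with bars of 1 SE from the limma fit without the block. *msra-1* at 4.18 and *trx-3* at -1.71, which did not pass the test, lie outside the range of -0.47 to 1.01 that the tested genes of the other 6 lists cover.

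The genes whose pattern over the 10 libraries was most like that of *msra-1* were found by the root mean square difference of log2(TPM + 1) after each gene was centred on its own mean. They were *pmp-5*, related to the human vitamin B12 transporter gene *ABCD4*, at 0.53, *F44A6.5* at 0.54, the claudin-like gene *clc-24* at 0.54, *DH11.2* at 0.56 and *metr-1* at 0.59, where 0 would be the same pattern. *pmp-5* had a mean of 167 TPM in *mthf-1(ww50)*, 115 TPM in *sams-1(ww51)*, 152 TPM in *metr-1(ww52)* and 119 TPM in *mtrr-1(ww56)*, against 13.1 TPM in the parent. *metr-1*, which is mutated in 1 of the strains, had 242.21 and 187.38 TPM in *metr-1(ww52)* and between 130.62 and 242.40 TPM in the other mutants, against 24.46 and 22.84 TPM in the parent. On the log2(TPM + 1) scale the mean differences of the 5 genes started at 2.98 and were all smaller than the 4.18 of *msra-1*. This scale understates the change of *clc-24*, which averaged 0.85 TPM in the parent and 25.4 to 31.2 TPM in the mutants. The changes of *clc-24* and *msra-1* therefore cannot be ranked on it. Without the block, *pmp-5*, *clc-24* and *DH11.2* were called in 4 single mutants, *metr-1* in 3 and *F44A6.5* in 1, and *msra-1* in none. The share of all genes called there was 0.0763% to 0.291%. Replicate 1 was higher in 5 strains for *F44A6.5*, *clc-24* and *metr-1*, as for *msra-1*, but in 2 for *pmp-5* and 1 for *DH11.2*.

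In the WBcel235 annotation *msra-1* is a protein-coding gene on the minus strand of chromosome II (7363220 to 7364040), with 2 exons and 688 exonic bases. *trx-1* is on the minus strand of the same chromosome (7752637 to 7753600, 3 exons). On the plus strand are *trx-2* on chromosome V (10314671 to 10315294, 3 exons), *trx-3* and *trxr-1* on chromosome IV (4487028 to 4489000 with 4 exons, and 7011954 to 7016586 with 7 exons) and *trxr-2* on chromosome III (8913769 to 8916459, 6 exons). The members thus lie apart from one another.

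Exons of 5 of the 6 genes overlap those of a gene on the opposite strand by 41 to 109 bases, and the sources used here name no strand setting for the counting, so reads in the overlap cannot be assigned with certainty. For *msra-1* the overlap is 41 bases with *insc-1*, which had 4.10 to 6.58 TPM in the mutants and 4.61 and 5.50 TPM in the parent. *asps-1*, which overlaps *trx-2* by 47 bases, had 15.16 to 28.30 TPM in the mutants and 17.40 and 19.96 TPM in the parent, and *gbb-2*, which overlaps *trx-3* by 72 bases, had 3.03 to 6.25 TPM against 3.95 and 4.10 TPM. Each of these 3 genes was below the member it overlaps in all 10 libraries, least so in the lowest *trx-3* libraries, and none was called in any comparison. *cpna-2*, which shares 95 bases with *trx-1*, was more abundant than it, with 29.16 to 32.60 TPM in the mutants and 31.24 and 28.32 TPM in the parent, so the low *trx-1* values are uncertain. *cdc-25.3*, which shares 109 bases with *trxr-2*, had at most 1.86 TPM.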

How the data were processed

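The 10 libraries were grouped by the strain and replicate in their labels. The authors aligned the reads with Bowtie2 to the WS271 release of WormBase, estimated abundance with RSEM and deposited 1 table of TPM values (relative transcript abundance), which sum to 1000000 per library over 46903 genes. The submitters' processing notes also name R 3.6.3. All columns were matched to samples. TPM keep no depth, so precision comes from the replicates alone. Symbols were found for 44018 identifiers. Coordinates are from WBcel235, which was not compared base by base with WS271.

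For the tests, log2(TPM + 1) was fitted for 14418 genes (those averaging 1 TPM or more) by limma 3.58.1 in R 4.3.3, with 1 mean per strain over all 10 libraries, trended empirical Bayes moderation and two-sided p-values adjusted over all of these genes (Benjamini-Hochberg). The cutoffs, an adjusted p under 0.01 and over 1.5-fold, are those the study names. Intervals are 95%. Fold changes and p-values in the sources were not used. The script was tested on simulated data. Python 3.11.15 with pandas 2.3.3, numpy 2.4.6 and matplotlib 3.10.9 made the tables and figures.

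Pairing was read from the replicate numbers in the labels: the difference between replicates 1 and 2 correlated across genes at 0.166 to 0.736 in the 10 pairs of strains, and all 10 were over 0.1. Alternatives were the replicate block, no filter, a pseudocount of 0.1, a filter at 5 TPM, median-ratio scaling, no trend, a cutoff of 0.05 and each library left out. A difference was taken as reversed by an alternative only where both values were over 1 SE. Signs and counts of positive differences include values within 1 SE.

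The members and lists were chosen with earlier results of these data known. Named with values are the members, genes of the 6 pathway lists called in any mutant against the parent in either fit, the genes of these lists with the highest and lowest mean difference, genes whose exons overlap a member, and the 5 tested genes most like *msra-1*. List genes were matched by symbol, except *selb-1* (no match) and *ssp-9* (more than 1 identifier), which were left out. Named after their values were seen were *F44E2.6*, *trx-4*, *trx-5*, *acdh-1*, *elt-2*, *daf-28*, *ssu-1* and *gpa-9*.

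The marker lists not described in the report gave these summed ranges: 7 neuron genes 140 to 179 TPM in the mutants and 123 and 136 TPM in the parent, 4 body wall muscle genes 2425 to 2964 TPM in the mutants and 2329 and 2692 TPM in the parent, 6 yolk genes 147 to 3572 TPM in the mutants and 1140 and 4121 TPM in the parent, and 8 sperm genes 543 to 1557 TPM in the mutants and 1450 and 1701 TPM in the parent.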

Additional observations from a re-analysis of the deposited data

How the results depend on the processing

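The values below count how many of the 5 tested members were called. In each of *mthf-1(ww50)*, *metr-1(ww52)*, *mtrr-1(ww56)* and *sams-1(ww51)* against the parent the count of 0 became 1 with the replicate block and 1 at a cutoff of 0.05, each time through *msra-1*. Leaving out 1 library gave 0 to 1 in *mthf-1(ww50)*, *metr-1(ww52)* and *mtrr-1(ww56)*, where either *sams-1(ww51)* library left out gave 1 (*msra-1* adjusted p of 0.00425 to 0.00607), and 0 throughout in *sams-1(ww51)*. In the mean of the 4 mutants the count of 1 became 0 with no filter (*msra-1* adjusted p = 0.0128) and 0 with median-ratio scaling (0.0108), and ranged from 0 to 1 when 1 library was left out. A further setting, chosen after seeing the data, left out both libraries with the highest molting sums and gave 1 in *mthf-1(ww50)* (*msra-1* adjusted p = 0.00798). The cause of these changes was not tested. Over all settings the log2 difference of *msra-1* from the parent stayed between 2.83 and 4.98 in the single mutants. The replicate block changed no other member's call. *sams-1(ww51)* minus the other mutants and the 6 pairs of mutants gave 0 under every setting. No difference of a member over 1 SE became one of the opposite sign over 1 SE, but signs did change where 1 or both values were within 1 SE: *trxr-2* in *mtrr-1(ww56)* was -0.01 with median-ratio scaling, and with 1 library left out *sams-1(ww51)* minus the other mutants reached 0.02 for *msra-1* and 0.71 for *trx-3*, and 3 of the 6 pairs of mutants changed sign for *msra-1*. With 1 library of a strain left out, the lone library is assumed to vary like the other strains. Depth is unknown, so low levels such as those of *trx-1* carry an unknown counting error.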
